A study of Mus musculus with 48 samples.

Results

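The proteasome is the barrel-shaped protease that degrades proteins tagged with ubiquitin, and 5 genes of its constitutive subunits were measured in mouse cortex: Psma5 of the core particle, Psmc2 and Psmc6 of the base, and Psmd6 and Psmd14 of the lid. They were taken by symbol from the 757 genes of the nCounter Glial panel: 7 symbols begin with Psm, and the immunoproteasome gene Psmb8 was left out by rule. Psmd10 also fits that symbol rule, but its protein is an assembly chaperone and belongs to none of core, base and lid. It is therefore described beside the 5 subunit genes. The family was chosen by earlier results of these data, the genotype difference in the same mice among them. The genotype values of the 5 genes are therefore a description: no p-value is given for any of them, and counts past the threshold stand only beside the share of all genes past it.

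The study asked how lower Plcg2 expression affects the brain of a mouse model of Alzheimer's disease. All mice were 7.5 months old and carried 5xFAD, a set of Alzheimer's disease transgenes driven by the neuronal Thy1 promoter, and no mice without 5xFAD were among the samples used here. The groups were 6 female 5xFAD mice with 1 Plcg2 allele knocked out (Plcg2+/-), 6 female 5xFAD mice with both alleles, 6 male Plcg2+/- 5xFAD mice and 6 male 5xFAD mice, and the group names Plcg2+/- and 5xFAD are used below. Whether the knockout is limited to a cell type is not given in the sources used here. Total RNA of each cortex was hybridised to colour-coded probes that are counted singly, and the values below are normalized counts, with differences on the log2 scale. A second panel, Neuropathology, was run on the same 24 mice and holds 760 genes, none of them among these 5.

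Proteins are marked for the proteasome by a cascade of E1, E2 and E3 enzymes that attach chains of ubiquitin. The regulatory particle receives them: its lid holds the deubiquitinase that takes the chain off, its base holds a ring of ATPases that unfold the protein and thread it inward, and the core particle cuts it into peptides. Neurons rely on this route for protein turnover at synapses, and aggregates that carry ubiquitin are a feature of Alzheimer's disease brain. Proteasome genes are known to be induced together when proteasome activity is low, through the factor NFE2L1 binding to antioxidant response elements in their promoters.

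The promoters of the gene with the largest genotype difference, Psma5, and of the pair of base ATPases, Psmc6 and Psmc2, which differed from each other, are shown from RefSeq (GRCm38.p6). Each runs from 250 bases before to 50 after the gene's start, 5′ to 3′ on the + strand, which is the strand of all 3 genes. Capitals mark matches, on either strand, to the antioxidant response element core TGACNNNGC, its shorter form TGANNNNGC, the CCAAT box CCAAT and the GC box GGGCGG. Psma5 lies at chr3:108256676-108256975, Psmc6 at chr14:45329574-45329873 and the first of 2 Psmc2 starts at chr5:21785025-21785324.
Psma5: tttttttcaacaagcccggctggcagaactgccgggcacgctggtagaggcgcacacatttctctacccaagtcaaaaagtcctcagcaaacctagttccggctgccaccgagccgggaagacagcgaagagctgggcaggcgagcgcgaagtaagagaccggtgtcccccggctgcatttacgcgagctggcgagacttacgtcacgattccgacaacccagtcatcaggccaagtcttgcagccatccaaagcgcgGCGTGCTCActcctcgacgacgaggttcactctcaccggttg
Psmc6: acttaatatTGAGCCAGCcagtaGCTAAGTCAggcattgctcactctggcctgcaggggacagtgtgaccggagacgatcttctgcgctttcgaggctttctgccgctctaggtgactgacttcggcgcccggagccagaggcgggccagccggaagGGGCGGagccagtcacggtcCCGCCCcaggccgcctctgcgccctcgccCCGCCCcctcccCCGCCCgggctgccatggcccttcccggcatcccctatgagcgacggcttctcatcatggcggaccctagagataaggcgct
Psmc2: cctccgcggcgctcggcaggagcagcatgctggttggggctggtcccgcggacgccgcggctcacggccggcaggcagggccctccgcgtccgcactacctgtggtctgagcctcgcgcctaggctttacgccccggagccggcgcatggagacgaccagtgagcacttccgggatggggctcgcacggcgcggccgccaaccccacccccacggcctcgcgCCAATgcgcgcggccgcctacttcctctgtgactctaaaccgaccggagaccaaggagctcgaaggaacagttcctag

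TGACNNNGC was found in 1 of the 5 subunit genes, Psmc6, on the reverse strand, with its leftmost base as printed at position -227 from the start. It occurs in 12.39% of all 32851 promoters of this length. The shorter TGANNNNGC, which every TGACNNNGC also matches, was in Psma5 on the reverse strand, with its leftmost base as printed at position 8. This shorter form was also in Psmc6 at 2 places and in the second Psmc2 start at 2 places, against 41.34% of all promoters. A CCAAT box, held by 37.41% of promoters, was in the first Psmc2 start and at 3 places in Psmd14. A GC box, held by 35.66%, occurred 4 times in Psmc6, 3 times in Psmd14 and once in Psmd6. None of these 4 motifs was in all 5 genes, and a match is a description of letters only.

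Library totals differed between the groups. Over the Glial genes, totals were 1773331 to 1897264 counts in Plcg2+/- females, against 953461 to 1239109 in 5xFAD females, so depth and genotype moved together in females. In males, totals were 1360757 to 1814975 counts in Plcg2+/- mice and 1428825 to 1775622 in 5xFAD mice. The lowest count of any of the 5 genes in any mouse was 852. Animal numbers were 3 to 51 in Plcg2+/- mice and 1177 to 1270 in 5xFAD mice. Genotype thus cannot be told apart from anything that went with the animal numbering. Neither panel measures Plcg2, which leaves the genotype labels unchecked, and Xist, which would check sex, was also not on either panel. In cortex RNA, fewer cells of a type and less RNA per cell cannot be told apart.

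Psma5, which encodes an α subunit of the core particle's outer ring had the largest genotype difference of the 5. In females, its normalized count was 739 at the lowest, 816 at the median and 913 at the highest in Plcg2+/- mice, against 1130, 1343 and 1423 in 5xFAD mice. In males it was 874, 955 and 1031 in Plcg2+/- mice, against 1220, 1340 and 1509 in 5xFAD mice. The genotypes did not overlap in either sex. Of all genes, 11.4% lay wholly lower in Plcg2+/- females and 7.13% in Plcg2+/- males. On the log2 scale the difference, Plcg2+/- minus 5xFAD, was -0.68 ± 0.066 (SE) in females and -0.51 ± 0.066 in males, a fold of 0.625 and 0.702. The group means were ordered as Plcg2+/- females (817 ± 57.4, SD, n = 6), Plcg2+/- males (946 ± 57.7), 5xFAD females (1311 ± 116) and 5xFAD males (1350 ± 113), and the last pair differed by less than their spread.

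Psmc2 and Psmc6 encode ATPases of the same ring in the base, yet their values ran differently. Psmc6 in females was 1514 at the lowest, 1662 at the median and 1833 at the highest in Plcg2+/- mice, against 2158, 2621 and 3032 in 5xFAD mice. In males it was 1850, 1887 and 1983 in Plcg2+/- mice, against 1964, 2210 and 2464 in 5xFAD mice. All Plcg2+/- females lay below all 5xFAD females, as was so for 11.4% of all genes. Of the Plcg2+/- males 5 of 6 lay below all 5xFAD males. The difference was -0.65 ± 0.071 in females and -0.20 ± 0.071 in males. The 4 group means of Psmc6 were 1656 ± 119 in Plcg2+/- females, 1900 ± 50.4 in Plcg2+/- males, 2196 ± 219 in 5xFAD males and 2601 ± 282 in 5xFAD females.

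Psmc2 was nearly level between genotypes, and its sign turned with sex. In females it was 2097 at the lowest, 2160 at the median and 2256 at the highest in Plcg2+/- mice, against 2196, 2348 and 2501 in 5xFAD mice. In males it was 2351, 2590 and 2760 in Plcg2+/- mice, against 2271, 2348 and 2460 in 5xFAD mice. Of the Plcg2+/- females 5 of 6 lay below all 5xFAD females, while 4 of 6 Plcg2+/- males lay above all 5xFAD males. The difference was -0.12 ± 0.043 in females and 0.12 ± 0.043 in males. Over both sexes it was 0.0026 ± 0.030, against -0.43 ± 0.050 for Psmc6. The 2 5xFAD groups had nearly the same mean of Psmc2, 2346 ± 102 in females and 2349 ± 69.5 in males, while the Plcg2+/- groups lay below and above them at 2159 ± 58.8 in females and 2563 ± 156 in males.

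In the lid, Psmd14 encodes the metalloprotease that cleaves ubiquitin chains from substrates, and Psmd6 a structural subunit. Psmd14 in females was 1903 at the lowest, 1988 at the median and 2100 at the highest in Plcg2+/- mice, against 2462, 2847 and 3060 in 5xFAD mice. In males it was 2210, 2386 and 2564 in Plcg2+/- mice, against 2447, 2602 and 2714 in 5xFAD mice. The genotypes did not overlap in females, where 11.4% of all genes lay wholly lower in Plcg2+/- mice. Of the Plcg2+/- males 3 of 6 lay below all 5xFAD males. The difference was -0.50 ± 0.050 in females and -0.12 ± 0.050 in males.

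Psmd6 was lower in Plcg2+/- females and spread to both sides in Plcg2+/- males. In females it was 1690 at the lowest, 1828 at the median and 1907 at the highest in Plcg2+/- mice, against 2179, 2361 and 2565 in 5xFAD mice. Males had 2086, 2372 and 2488 in Plcg2+/- mice, against 2108, 2187 and 2255 in 5xFAD mice. The genotypes did not overlap in females, where 11.4% of all genes lay wholly lower in Plcg2+/- mice. Of the Plcg2+/- males 4 lay above all 5xFAD males and 1 below them. The difference was -0.38 ± 0.049 in females and 0.086 ± 0.049 in males.

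**Figure D1:**
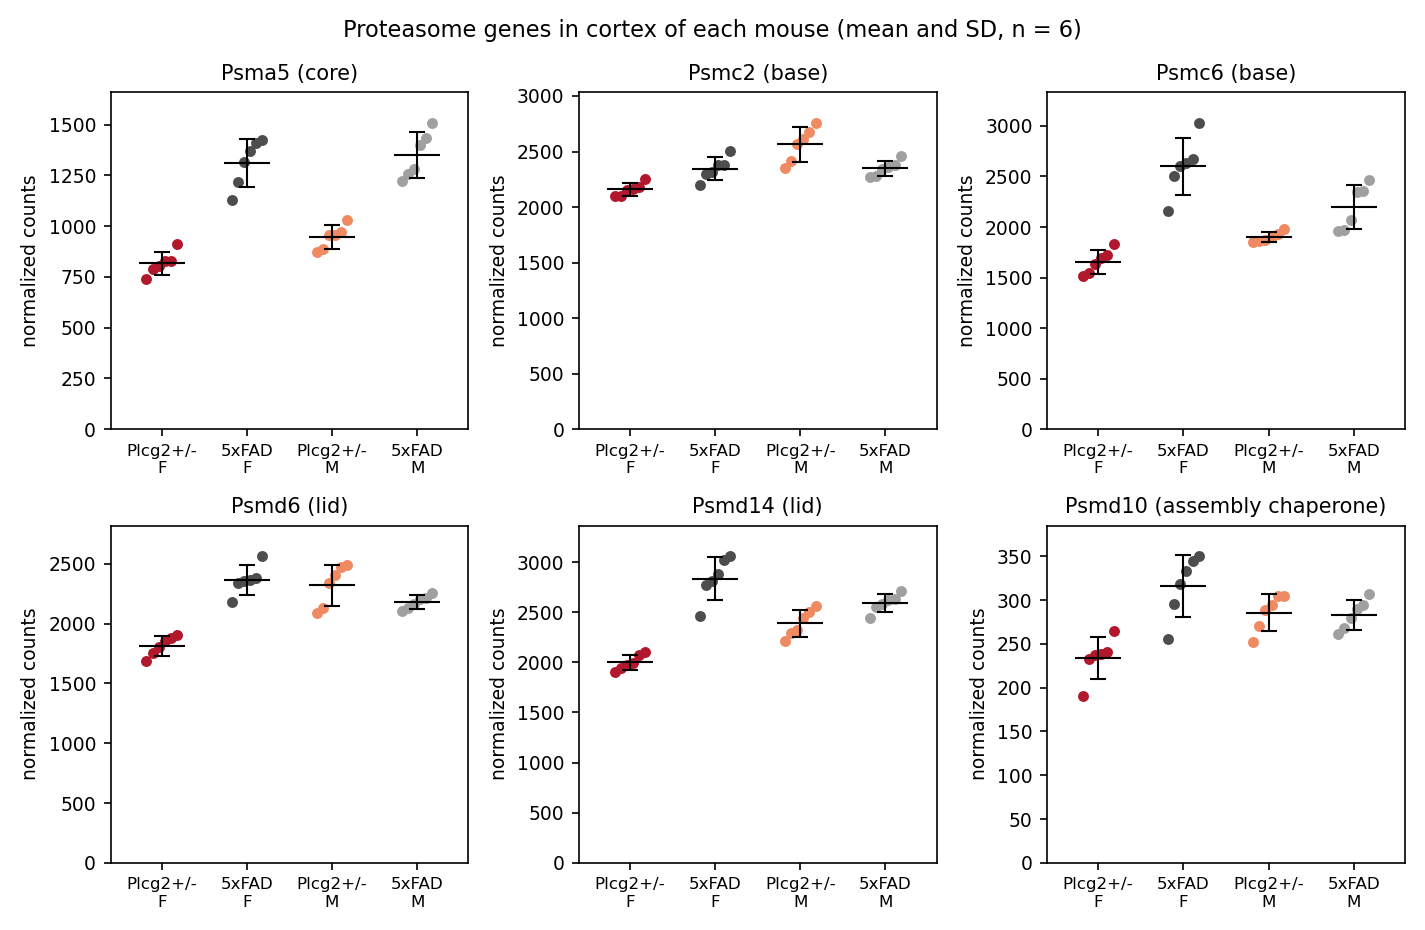
Normalized counts of the 5 subunit genes and Psmd10 on the Glial panel, 1 point per mouse, with the mean and SD of 6 mice per group (F, female; M, male). Psma5 is lower in Plcg2+/- mice of both sexes, while Psmc2 and Psmd6 are lower in Plcg2+/- females and mostly higher in Plcg2+/- males.

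Over both sexes, 4 of the 5 genes were lower at an adjusted p under 0.05 in the limma fit over all genes, and none was higher. Psmc2 was the exception. The background was high: 26.7% of the 757 genes were lower and 33.8% higher by the same rule. The median difference of the 5 genes was -0.31, against 0.04 over all genes. In females all 5 were lower, where 20.3% of all genes were, and for 4 of them all Plcg2+/- mice lay below all 5xFAD mice, as was so for 11.4% of all genes. In males 2 were lower (background 23.5%), 1 was higher (17.2%), and 1, Psma5, did not overlap between genotypes (7.13%). Because the family was selected on this contrast, nothing further is read from these counts.

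The counts in males were unsteady, against 23.5% of all genes lower and 17.2% higher with all mice kept. The number lower in males was 1 without 5xFAD male 1181, 1269 or 1270, and 3 without 5xFAD female 1189, 5xFAD male 1268 or Plcg2+/- male 46. The number higher in males was 0 without 5xFAD male 1181 or 1270 or Plcg2+/- male 10 or 46, and 2 without Plcg2+/- male 3.

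The genotype difference was more negative in females than in males for all 5 genes, and the test of that difference, the interaction term in the limma fit, passed for 4. Earlier values of these same mice were known when it was run, so its p-values describe those mice and are no fresh support. For Psmd6 the female difference minus the male difference was -0.47 ± 0.070 (adjusted p = 0.000125). For Psmd14 it was -0.38 ± 0.071 (adjusted p = 0.000722). For Psmc6 it was -0.44 ± 0.10 (adjusted p = 0.00267). For Psmc2 it was -0.24 ± 0.060 (adjusted p = 0.00566). Psma5 did not pass, at -0.17 ± 0.093 (adjusted p = 0.203). A negative interaction passed for 51 genes, 6.74% of all, and a positive one for 115. With median centring of each mouse the split was 79 positive and 105 negative, and with quantile normalization 79 and 97. The median interaction was -0.38 for the 5 genes and 0.09 over all genes. The gap in library totals between genotypes in females ran alongside, and its part in the interaction was not tested.

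**Figure D2:**
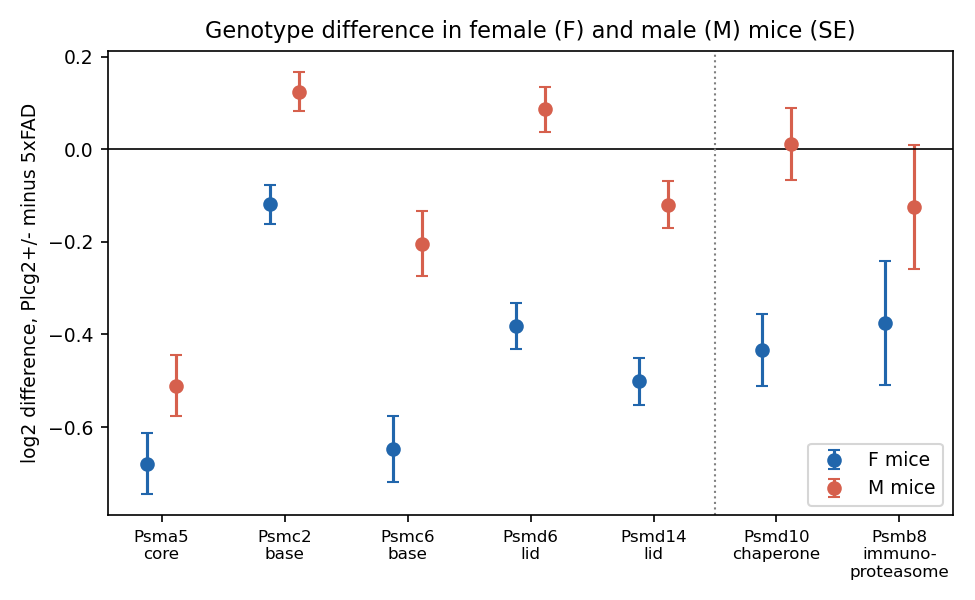
Genotype difference (log2, Plcg2+/- minus 5xFAD) with its standard error in females and in males for the 5 subunit genes, Psmd10 and Psmb8, 6 mice per group. The 5 subunit genes run from -0.68 to -0.12 in females and from -0.51 to 0.12 in males.

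The same interaction shows in the order of the sexes within a genotype. In Plcg2+/- mice the female minus male difference was negative for all 5 genes, from -0.35 for Psmd6 to -0.20 for Psmc6, where the median of all genes was -0.24. In 5xFAD mice it was 0.24 ± 0.071 for Psmc6, 0.13 ± 0.050 for Psmd14, 0.12 ± 0.049 for Psmd6, -0.0025 ± 0.043 for Psmc2 and -0.043 ± 0.066 for Psma5, where the median of all genes was -0.31. Averaged over the genotypes, the limma test called 3 of the 5 lower in females, Psma5 at -0.13 (adjusted p = 0.0164), Psmc2 at -0.12 (adjusted p = 0.000788) and Psmd6 at -0.12 (adjusted p = 0.00380). Earlier values of these same mice were known here too, so these p-values are no fresh support. At the same threshold, 76.2% of all genes were lower in females, with a median of -0.27. That common shift depended on the scaling: with each mouse centred on its median the all-gene median was -0.04, 107 genes were higher and 192 lower. With quantile normalization 134 were higher and 159 lower. None of the 5 genes was then lower in females, and 4 were higher under either scaling, so no direction by sex is given for them.

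Ratios of genes within a mouse do not change when all values of that mouse are multiplied by 1 factor. The log2 ratio of Psma5 to Psmc2, core over base, ran from -1.54 to -1.25 in Plcg2+/- females against -1.04 to -0.70 in 5xFAD females. In males it ran from -1.53 to -1.30 in Plcg2+/- mice against -0.95 to -0.70 in 5xFAD mice. The genotypes were apart in both sexes by about the same amount. This pair sets the gene of largest genotype difference against the one nearly level, so their separation follows from the choice of genes. All ratios here are of genes whose genotype differences were already in view, and other gene pairs were not counted. The ratio of Psmc6 to Psmc2, within the base, ran from -0.50 to -0.24 in Plcg2+/- females against -0.03 to 0.39 in 5xFAD females. In males it ran from -0.48 to -0.329 in Plcg2+/- mice against -0.325 to 0.12 in 5xFAD mice, so the male groups only just failed to overlap. The ratio of Psmd14 to Psmd6, within the lid, averaged 0.14 ± 0.039 in Plcg2+/- females and 0.26 ± 0.059 in 5xFAD females (SD, n = 6 each). In males it averaged 0.04 ± 0.050 in Plcg2+/- mice and 0.25 ± 0.076 in 5xFAD mice, and the ranges overlapped in females and not in males: the highest Plcg2+/- male had 0.134 and the lowest 5xFAD male 0.141. For these chosen pairs the genotype differences were unequal, also within the base and within the lid, which describes the pairs and tests nothing.

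**Figure D3:**
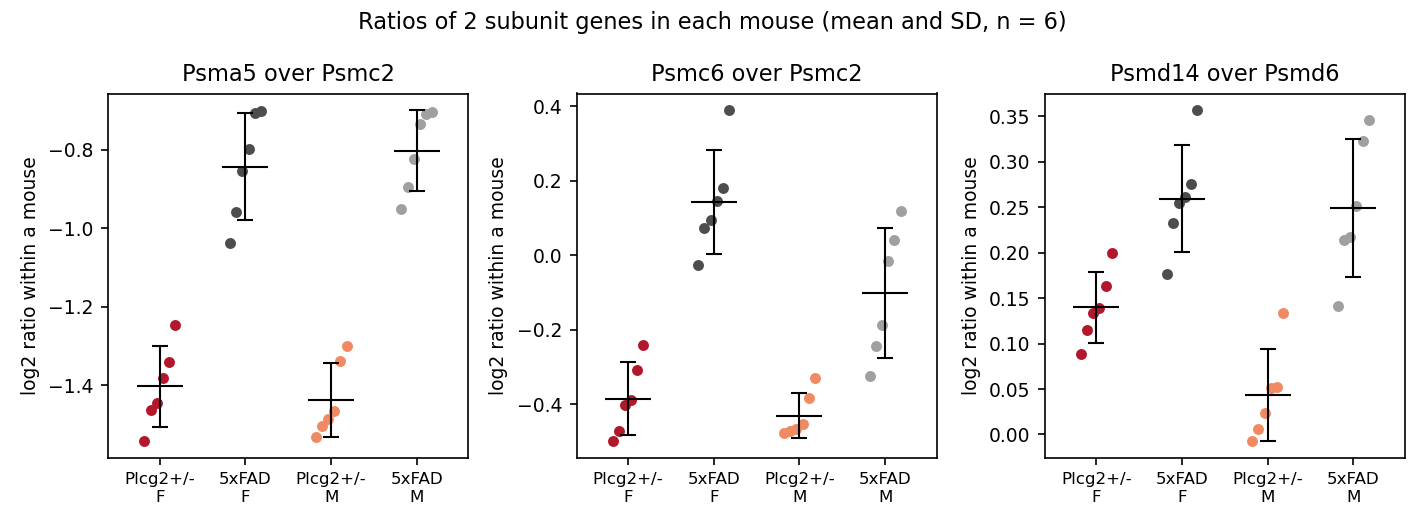
Log2 ratios of 2 subunit genes within each mouse, 1 point per mouse, with the mean and SD of 6 mice per group. Psma5 over Psmc2 separates the genotypes in both sexes, and Psmd14 over Psmd6 overlaps in females.

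Among mice of 1 group, the subunit genes varied together in part. After each group's mean was subtracted, Pearson's r over the 24 mice ran from 0.17 for Psmc2 with Psmc6 to 0.73 for Psmc2 with Psmd6, and the median over the 10 pairs was 0.50. Psmd6 and Psmd14, both of the lid, had r = 0.73. The points of each pair share a library and its scaling, and the mean of the 5 genes had r = 0.07 with the log2 library total. One mouse, 5xFAD female 1189, was lowest of its group in all 5 genes, and without it the median r was 0.32.

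The genes most like the mean of the 5 across these 24 mice were Txn1 (thioredoxin, a redox protein) at r = 0.83, Atp6v1d at 0.82 and Atp6v1c1 at 0.81 (subunits of the proton pump of lysosomes and vesicles), Ube2g1 at 0.79 (an E2 enzyme) and Acot13 at 0.75 (a thioesterase). The lowest were Itga7 at -0.62, an integrin of laminin binding, Xcl1 at -0.58, a chemokine, and Camk2a at -0.54, a synaptic kinase. The median over the 752 other genes was 0.09. Without 5xFAD female 1189 the 5 highest kept r of 0.69 to 0.79, while Itga7 was at -0.39, Xcl1 at -0.50 and Camk2a at -0.22.

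Psmd10, or gankyrin, which helps to assemble the base and was chosen for description after its values were seen, was lower in Plcg2+/- females and nearly level in males. It was 190 at the lowest, 238 at the median and 264 at the highest in Plcg2+/- females, against 256, 326 and 350 in 5xFAD females. Among males the values were 252, 291 and 305 in Plcg2+/- mice, against 261, 285 and 307 in 5xFAD mice. The female groups overlapped by 1 Plcg2+/- mouse, and the male groups overlapped nearly whole. The interaction of Psmd10 was -0.44 ± 0.11 (limma, adjusted p = 0.00585), where a negative one passed for 6.74% of all genes. That p-value too describes these mice and is no fresh support. The r of Psmd10 with the 5 genes within groups was 0.42 to 0.63.

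The immunoproteasome replaces catalytic subunits of the core with interferon-inducible ones, of which Psmb8 was on both panels and Psmb9 on the Neuropathology panel. Psmb8 on the Glial panel was 116 at the lowest, 140 at the median and 171 at the highest in Plcg2+/- females, against 154, 183 and 231 in 5xFAD females. Among males they were 99.3, 125 and 156 in Plcg2+/- mice, against 95.5, 144 and 168 in 5xFAD mice. Both sexes overlapped. Its r with the 5 constitutive genes within groups was -0.05 to 0.14, against 0.17 to 0.73 among those 5.

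On the Neuropathology panel, the genotype difference over both sexes was -0.25 ± 0.074 for Psmb8 (limma, adjusted p = 0.00448) and -0.32 ± 0.073 for Psmb9 (adjusted p = 0.000677). Psmb9 had 39.6 at the lowest, 49.6 at the median and 59.96 at the highest in Plcg2+/- females, against 53.9, 66.1 and 73.9 in 5xFAD females. By the same rule 36.1% of the panel's 760 genes were lower and 35.5% higher. With each mouse centred on its median, Psmb8 did not pass (-0.11, adjusted p = 0.201), and Psmb9 was at -0.17. For neither gene did the interaction pass.

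Of 8 lists of the ubiquitin and protein turnover system, 7 had genes on the Glial panel, 24 genes in all, of which 12 were lower and 8 higher in Plcg2+/- mice over both sexes, against 26.7% lower and 33.8% higher among all genes of that panel. No gene of ubiquitin itself or of an E1 enzyme was measured. Both measured E2 enzymes fell: Ube2n, which builds chains with signalling roles, by 0.42 ± 0.040 (limma, adjusted p = 4.39e-08), and Ube2g1 by 0.15 ± 0.041 (adjusted p = 0.00269). Ube2n in females had 1880 at the lowest, 1941 at the median and 2229 at the highest in Plcg2+/- mice, against 2584, 2927 and 3229 in 5xFAD mice. The genotypes did not overlap in either sex, since in males it had 2219, 2289 and 2561 in Plcg2+/- mice, against 2671, 2793 and 3089 in 5xFAD mice. Of all genes 11.4% lay wholly lower in Plcg2+/- females and 7.13% in Plcg2+/- males. On the Neuropathology panel the females overlapped, with a Ube2n median of 654 in Plcg2+/- mice and 619 in 5xFAD mice and a difference of -0.0060, while in males it was -0.63.

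Of 7 ligase genes 5 fell (26.7% of all genes) and 1 rose (33.8%), with a median of -0.54, against 0.04 over all genes. Rbx1, the RING subunit of cullin ligases, fell by 0.48, Skp1a, an adaptor of the same ligases, by 0.60, Cul2 by 0.65 and Eloc by 0.71. For Rbx1, Cul2 and Eloc the interaction was between -0.05 and 0.09 and did not pass, and for Skp1a it was -0.37 (limma, adjusted p = 0.0135).

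Of 4 deubiquitinating enzymes and shuttle factors on the Glial panel 3 rose, where 33.8% of all genes did: Ubqln1 by 0.28, Ubqln2 by 0.21 and Rad23b by 0.19, all carriers of ubiquitinated proteins to the proteasome. Ubqln2 was at 0.41 in females and 0.0063 in males (interaction, limma, adjusted p = 0.00103). Uchl1, a deubiquitinating enzyme of neurons, had -0.07 (adjusted p = 0.466), against 0.33 on the Neuropathology panel (adjusted p = 0.00608). Its mean normalized count was 1421 on the Glial panel and only 34.4 on the Neuropathology panel. Ubqln1 on the Neuropathology panel, in the same mice, was at -0.65 (adjusted p = 0.000789), and Rad23b at -0.17 (adjusted p = 0.0100), the opposite sign. On that panel Ubqln1 ran from 423 to 1408 in Plcg2+/- males (median 574) and from 980 to 1341 in 5xFAD males. In females it ran from 411 to 936 (median 504) and from 710 to 755. After group means were subtracted, r between the panels was -0.91 for Ubqln1 and -0.31 for Rad23b, against a median of 0.58 over the shared genes. The direction of both genes thus depended on the panel. Of the 11 list genes on both panels, 6 passed with the same sign on each and 2, these, with opposite signs. Over all 251 shared genes, 134 passed on both panels, 114 with the same sign and 20 with opposite signs. The 5 subunit genes were measured by 1 panel only and have no such second reading.

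Among known regulators, Stat3 rose by 0.29 over both sexes on the Glial panel, with 0.55 in females and 0.04 in males (interaction, limma, adjusted p = 0.00211). Stat3 on the Neuropathology panel rose by 0.21, with 0.35 in females and 0.07 in males. There its interaction did not pass (limma, adjusted p = 0.0522). On the Neuropathology panel Nfe2l2, a factor that binds antioxidant response elements, rose by 0.52 ± 0.074 (limma, adjusted p = 3.92e-06). The heat shock gene Hsp90ab1 rose by 0.17 over both sexes, with 0.38 in females and -0.04 in males (interaction, limma, adjusted p = 0.00273), and Hspa9 had 0.03 (adjusted p = 0.383). Autophagy, the lysosomal route of protein turnover, had 4 genes lower (26.7% of all genes) and 2 higher (33.8%) of 7. Gabarapl1 fell by 0.30, Atg5 by 0.23 and Map1lc3b by 0.22, all of the machinery that forms autophagosomes, and Sqstm1, the receptor for ubiquitinated cargo, rose by 0.26. Atg5 was at -0.42 in females and -0.03 in males (interaction, limma, adjusted p = 0.000603). On the Neuropathology panel Atg5 was at -0.41 in females and -0.39 in males (interaction, limma, adjusted p = 0.882). Its sex dependence was thus seen on the Glial panel alone. Sqstm1 had -0.10 on the Neuropathology panel (adjusted p = 0.244), so its rise was seen on the Glial panel alone.

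**Figure D4:**
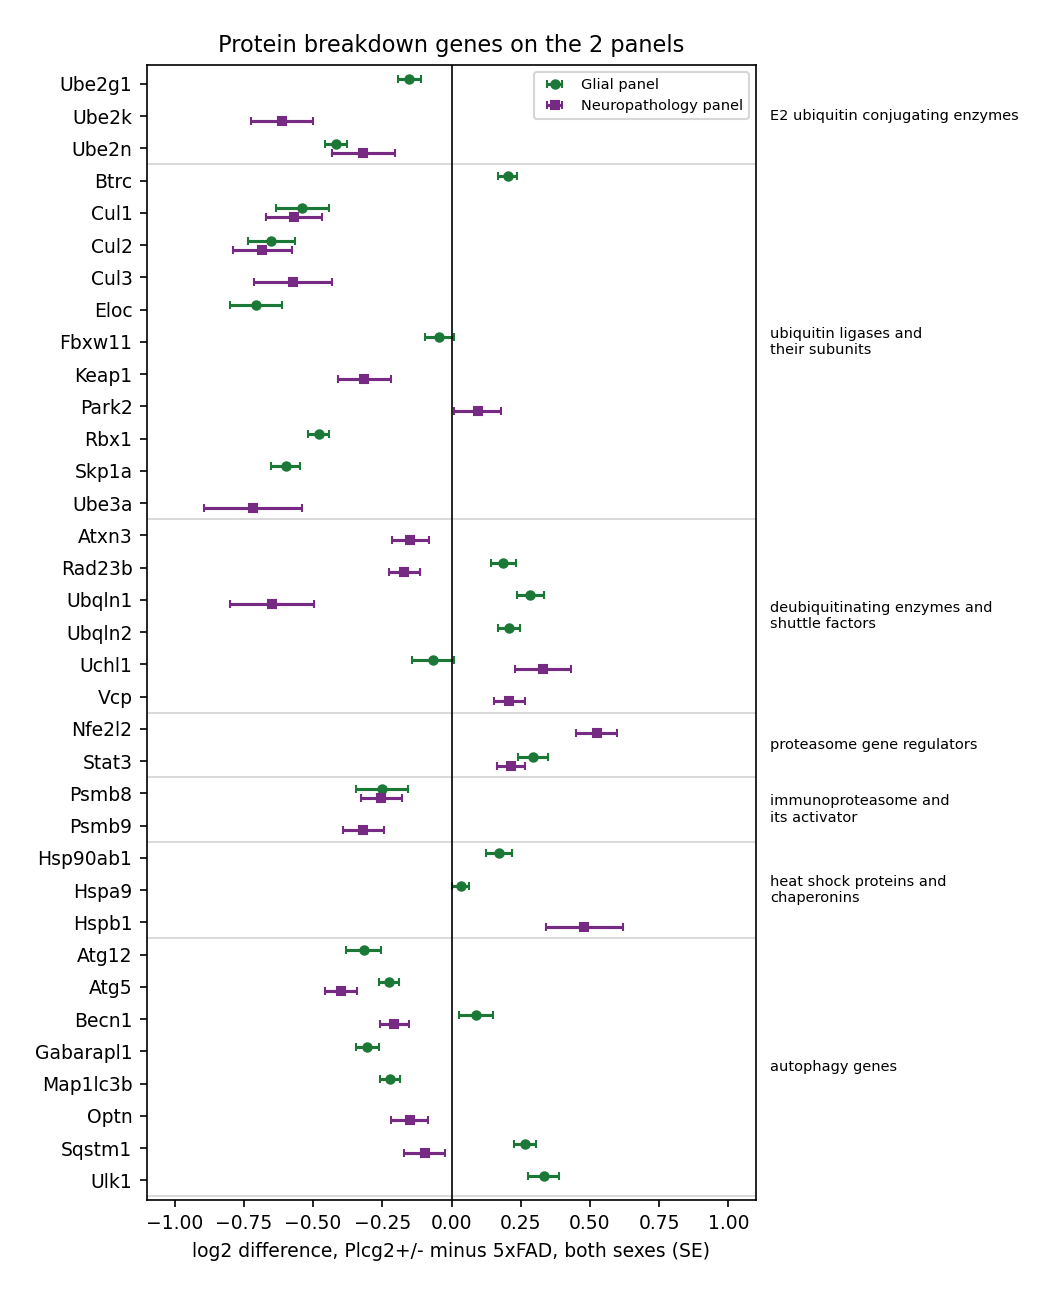
Genotype difference over both sexes (log2, Plcg2+/- minus 5xFAD) with its standard error for the measured genes of the ubiquitin and protein turnover lists, on the Glial panel and on the Neuropathology panel, 12 mice per genotype. Ligase genes lie mostly below 0 on both panels, while Ubqln1 and Rad23b lie above 0 on the Glial panel and below it on the Neuropathology panel.

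Cell type markers did not move as 1 block beside these genes. Summed neuron markers (9 genes) were 49498 to 55956 in Plcg2+/- females against 38666 to 47085 in 5xFAD females, and 58811 to 68738 in Plcg2+/- males against 59523 to 61913 in 5xFAD males. The largest members of this sum were Snap25 (mean normalized count 23608) and Syn1 (10729). Of the 9 neuron markers 5 were higher and 2 lower over both sexes, with a median of 0.13 (0.04 over all genes). On the Neuropathology panel 3 of 7 neuron markers were higher and 3 lower, where 35.5% of its genes were higher and 36.1% lower. Among all Glial genes 33.8% were higher and 26.7% lower, which is the background for every Glial marker count here. Summed microglia markers (12 genes, 2 higher and 5 lower) were 15640 to 19345 in Plcg2+/- females against 15284 to 21182 in 5xFAD females, and 12458 to 17013 in Plcg2+/- males against 14189 to 18882 in 5xFAD males. Of 6 astrocyte markers 3 were higher and 1 lower, of 6 oligodendrocyte markers 1 was lower, all 4 oligodendrocyte precursor markers were higher with a median of 0.45, and of 5 endothelial and mural markers 1 was higher and 3 lower. No marker was at 0, the lowest group mean being that of Emcn, an endothelial marker, at 48.6 in Plcg2+/- females. The part of cell composition in the proteasome values was not tested.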

How the data were processed

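Cortex RNA of 24 mice was run on the nCounter Glial and Neuropathology panels. The deposited values are log2 normalized counts; how they were normalized is not given in the sources used here. Within each of the 48 columns 100% of values were whole multiples of 1 factor (tolerance 0.05 of a count), which gave the library totals. Groups were genotype by sex from the labels, 6 mice each. In limma 3.58.1 (R 4.3.3), the log2 values as deposited were fitted, panel by panel, with 1 mean per group, with p-values adjusted over all its genes by the Benjamini-Hochberg method and calls at an adjusted p under 0.05. No gene was filtered: 65 Glial genes averaged under 20 normalized counts, none of them a subunit gene. Errors are SEs of the fit unless named SD. Each sample is a separate numbered mouse.

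The subunit genes and all lists were chosen with earlier results of these data known. Genes named are the 5 subunit genes and Psmb8, up to 4 genes of smallest genotype p per list, and the 5 highest and 3 lowest r with the subunit genes. A gene outside this rule, such as Psmd10, is stated to be one. The fit was tested on simulated data. Motifs were searched on both strands, a match on each strand counted. The settings varied were quantile normalization, median centring, the dim genes (left out), trend and robust eBayes, array weights, voom on the recovered counts, no sex term, each sex fitted alone, and mice left out. Leaving out a mouse for the correlations within groups, similar genes included, was added after the data were seen.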

Additional observations from a re-analysis of the deposited data

Results flagged for a closer look

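Of 20 groups of 6 mice (5 subunit genes in 4 groups), none held a mouse that stood far from the rest by Dixon's test. The genotype difference differed between females and males, by the interaction term of the limma fit, for 4 subunit genes: the female minus the male difference was -0.24 for Psmc2, -0.44 for Psmc6, -0.47 for Psmd6 and -0.38 for Psmd14. A negative interaction passed for 6.74% of all 757 genes. The family was chosen with earlier values of these mice known, so these calls are no fresh support. In females, library totals also differed between the genotypes without overlap, and their part was not tested.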

How the results depend on the processing

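The genotype count, 4 subunit genes lower over both sexes, stayed at 4 in all settings and left-out mice except without the sex term, where it was 3. Of all 757 genes, 202 were lower as deposited, 177 with median centring and 212 with quantile normalization. The family was selected on this contrast, so the steady count is no support for it. The interaction passed for the same 4 genes throughout, and with median centring (-0.26, adjusted p = 0.0450) or quantile normalization (-0.26, adjusted p = 0.0355) for Psma5 as well. In females 4 or 5 were lower throughout, where 20.3% of all genes were lower as deposited. As deposited, 23.5% of all genes were lower in males and 17.2% higher, and these shares were not recounted by setting. In males the number lower was 1 with median centring, quantile normalization and voom, and 1 to 3 with mice left out. The number higher in males was 2 with median centring, array weights, voom or without Plcg2+/- female 12 and Plcg2+/- male 3, 0 with each sex fitted alone, and 0 to 2 with mice left out. Psmc2 moved to 0.08 over both sexes and -0.04 in females with quantile normalization, and in males to 0.20 with median centring and 0.21 with quantile normalization. Other male differences that moved by over 1.5 times were Psmc6 (-0.13 with median centring), Psmd6 (0.16 with median centring, 0.14 with array weights) and Psmd14 (-0.046 with median centring, -0.063 with quantile normalization).

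The sex difference turned with the scaling. With median centring, quantile normalization and voom, 0 subunit genes were lower in females and 4, 4 and 5 were higher. In that order of settings the female minus male difference was 0.10, 0.11 and 0.12 for Psma5, 0.10, 0.10 and 0.12 for Psmc2, 0.11, 0.10 and 0.13 for Psmd6, and 0.16, 0.18 and 0.18 for Psmd14. For Psmc6 it was 0.25, 0.24 and 0.27, the highest of the 5 under each, against 0.02 as deposited. With single mice left out it was -0.0018 without 5xFAD female 1249 and at most 0.047, without 5xFAD female 1189. The cause was not tested. On the Neuropathology panel 1 of Psmb8 and Psmb9 passed with median centring, where Psmb8 had -0.11 and Psmb9 -0.17. The median r within groups was 0.39 with quantile normalization and 0.32 to 0.59 with mice left out. No paired analysis was possible because no animal number occurs in both genotypes. The subunit genes rested on 852 counts or more in every mouse.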
